A study of Mus musculus with 12 samples.

Results

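Neutrophil and monocyte progenitors are recognised by a small set of transcripts, and 10 of them were followed here across 4 genotypes of mouse marrow cells. The genes were given as a list: the serine proteases Elane, Prtn3 and Ctsg, the peroxidase gene Mpo, the membrane protein genes Ms4a3, Ly6c2, Fcgr3 and Igsf6, the chaperone gene Calr3 and the haptoglobin gene Hp. No measured value entered the rule, although the list was drawn up with earlier results known. All 10 were found among the 37187 genes of the deposited table, and all 10 passed the filter on low values that left 14045 genes for testing. The name granule genes holds for Elane, Prtn3, Ctsg, Mpo and Hp, whose products are stored in granules, while the other members encode surface or endoplasmic reticulum proteins of the same cells.

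The libraries were made from bone marrow cells sorted as LSK, that is without lineage markers and with Sca-1 and c-Kit (CD117) on the surface, the gate for stem cells and multipotent progenitors. The 4 groups were wild-type (WT), the single mutants Tet2 KO and Traf6 KO, and the double mutant Tet2;TRaf6 dKO, written dKO here, with 3 libraries each, and the labels give no treatment, age, strain or deleting allele. The product of Tet2 converts methylated cytosine to its hydroxymethyl form, and that of Traf6 attaches ubiquitin chains downstream of Toll-like receptors. The series title places the study in acute myeloid leukaemia, where it links TRAF6 to MYC.

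Granules of neutrophils form in waves. The first, azurophil or primary granules, are filled at the granulocyte-monocyte progenitor and promyelocyte stages with Mpo and the serine proteases, which are made as inactive precursors, trimmed by cathepsin C and held on the proteoglycan serglycin. Specific and gelatinase granules come later, and transcription factors of the C/EBP, PU.1, RUNX and MYB families are known regulators of the early genes. Most stem cells of the LSK gate carry little of these transcripts, whereas its myeloid-primed progenitors carry more.

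Promoter windows of the 3 proteases, Mpo and Ly6c2 are printed because these genes gave the highest levels (the proteases and Mpo) and one of the largest changes (Ly6c2) among the members. The sequences are RefSeq's, on build GRCm38.p6, and run 5′ to 3′ on the gene's strand. Each window reaches from 250 bases before the RefSeq start (the first of 2 listed for Ly6c2) towards that start, with bases that lie in an annotated exon of GENCODE M21 left out. Elane is read from chr10:79886062-79886246 on the plus strand and Prtn3 from chr10:79879417-79879613 on the plus strand. The Prtn3 stretch lies in an intron of the longer GENCODE gene model, whose start is further upstream. Ctsg is read from chr14:56102575-56102824 on the minus strand, Mpo from chr11:87793534-87793580 on the plus strand and Ly6c2 from chr15:75111972-75112221 on the minus strand. Capitals mark every match to the motifs counted in the next paragraph, on either strand.
Elane: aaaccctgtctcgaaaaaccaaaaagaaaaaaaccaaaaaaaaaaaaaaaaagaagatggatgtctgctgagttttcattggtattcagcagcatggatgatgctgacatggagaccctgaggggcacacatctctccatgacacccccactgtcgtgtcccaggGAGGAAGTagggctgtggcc
Prtn3: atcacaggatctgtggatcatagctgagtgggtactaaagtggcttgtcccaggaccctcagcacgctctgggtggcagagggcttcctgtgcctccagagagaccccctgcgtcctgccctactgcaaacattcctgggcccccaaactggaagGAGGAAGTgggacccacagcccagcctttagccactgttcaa
Ctsg: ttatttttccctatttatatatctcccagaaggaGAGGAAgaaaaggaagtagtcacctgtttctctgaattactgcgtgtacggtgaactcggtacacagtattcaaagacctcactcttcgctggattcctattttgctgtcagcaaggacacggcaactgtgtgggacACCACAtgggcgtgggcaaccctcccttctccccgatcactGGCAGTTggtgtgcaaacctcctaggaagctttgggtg
Mpo: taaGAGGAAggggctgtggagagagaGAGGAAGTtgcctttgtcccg
Ly6c2: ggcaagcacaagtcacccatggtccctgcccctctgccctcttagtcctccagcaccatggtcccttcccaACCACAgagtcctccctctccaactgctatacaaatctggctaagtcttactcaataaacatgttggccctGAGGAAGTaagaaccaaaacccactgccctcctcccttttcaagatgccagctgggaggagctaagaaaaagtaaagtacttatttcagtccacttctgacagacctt

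Motifs were searched in the whole 250 bases before each start. Ly6c2, Fcgr3 and Calr3 have 2 RefSeq starts each, and a match in either window counted for the gene. The shares of all windows given beside them are over single windows. The letters GAGGAA, a core of the ETS and PU.1 type, were found on either strand in 7 of the 9 members with a RefSeq entry (Elane, Prtn3, Ctsg, Mpo, Ly6c2, Fcgr3 and Igsf6) and in 23.4% of 32526 mouse windows of the same length. The longer form GAGGAAGT, which always overlaps a GAGGAA match, stood in the windows of Elane, Prtn3, Mpo and Ly6c2 and in 2.45% of all windows. It began 85 bases before the start in Elane, 95 bases in Prtn3, 224 bases in Mpo and 108 bases in Ly6c2. The MYB-type letters AACTGNC were present in Ctsg, Mpo and Igsf6 and in 10.6% of all windows. The RUNX-type letters TGTGGT were in Ctsg, Ly6c2 and Calr3 (only before the second start of Calr3) and in 14% of all windows. The C/EBP-type letters TTGCNNAA were found in Fcgr3 and in 9.57% of all windows. TATAAA, searched on the gene's strand, was in the window of 0 members and in 7.55% of all windows. A match is a run of letters, not a measured site. The Hp promoter was not analysed here.

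Several facts of the whole series touch the values that follow. Recovered reads numbered 22169673 to 53921402 per library. Traf6 itself stood at 1935 to 3006 in WT and at 568 to 2474 in Traf6 KO, so that the library labelled Traf6 KO 1, at 2474, lay inside the WT range. Tet2 stood at 525 to 783 in WT and at 403 to 668 in Tet2 KO, with the library labelled Tet2 KO 1, at 668, inside the WT range. In dKO, Traf6 stood at 799 to 1313 and Tet2 at 197 to 326, with log2 changes against WT of -1.36 and -1.39 (-0.17 and 0.09 with the trend described below removed). Which exons the alleles remove is not given in the sources used here, so reads outside them check nothing. Xist, the transcript of the inactive X chromosome, was at 990 to 3826 in Tet2 KO, 1164 to 2095 in Traf6 KO and at most 17 in WT and dKO. The Y-linked Ddx3y was at 3648 to 4065 in WT, 817 to 3889 in dKO and at most 51.7 in Tet2 KO. The library labelled Traf6 KO 1 carried both, with Xist at 1574, Ddx3y at 2815 and the Y-linked Eif2s3y at 1524, while Traf6 KO 2 and 3 had Y-linked levels of at most 2.32. Sex and genotype thus cannot be told apart in any comparison of a single knockout with WT or dKO, nor in the interaction, whereas WT and dKO libraries all carried Y-linked transcripts and little Xist. The members' changes of Traf6 KO against WT and counts for dKO against Traf6 KO are also given without the library labelled Traf6 KO 1. In dKO, change depended on transcript length: the median log2 change against WT was 1.55 for transcripts of up to 1000 nt, 1.05 from 1000 to 2000 nt, -0.03 from 2000 to 4000 nt and -1.23 above 4000 nt. Lengths here are those of the longest annotated transcript of a gene, and which transcript was present was not examined. By that length Elane belongs to the shortest class, and Prtn3, Ctsg, Ms4a3, Fcgr3, Calr3 and Hp to the second. Mpo, Ly6c2 and Igsf6 belong to the third. Values with the trend on length and GC content taken off each library are therefore given beside the main ones.

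The main finding is that, in the values as deposited, all 10 genes had their highest mean in dKO and their lowest in WT. Between these, 7 of 10 genes had a higher mean in Traf6 KO than in Tet2 KO and 3 (Elane, Mpo and Ly6c2) the reverse, but the Tet2 KO and Traf6 KO libraries overlapped for 10 of 10 genes. That split includes the library labelled Traf6 KO 1, the lowest of its group for 10 of 10 genes, and is not given without it. For Calr3 the means of dKO and Traf6 KO were close, at 286 and 279. Its change between these groups was -0.41 with the trend removed. How many of all tested genes had WT lowest and dKO highest was not counted. The dKO libraries lay wholly above WT for 27.9% of all tested genes. In bulk RNA a higher share of cells that carry a transcript and more of it per cell cannot be told apart. Levels below are the deposited normalised reads of replicates 1, 2 and 3 in that order, and log2 changes are on the log2(value + 1) scale from limma with a Benjamini-Hochberg adjustment over all tested genes.

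**Figure D1:**
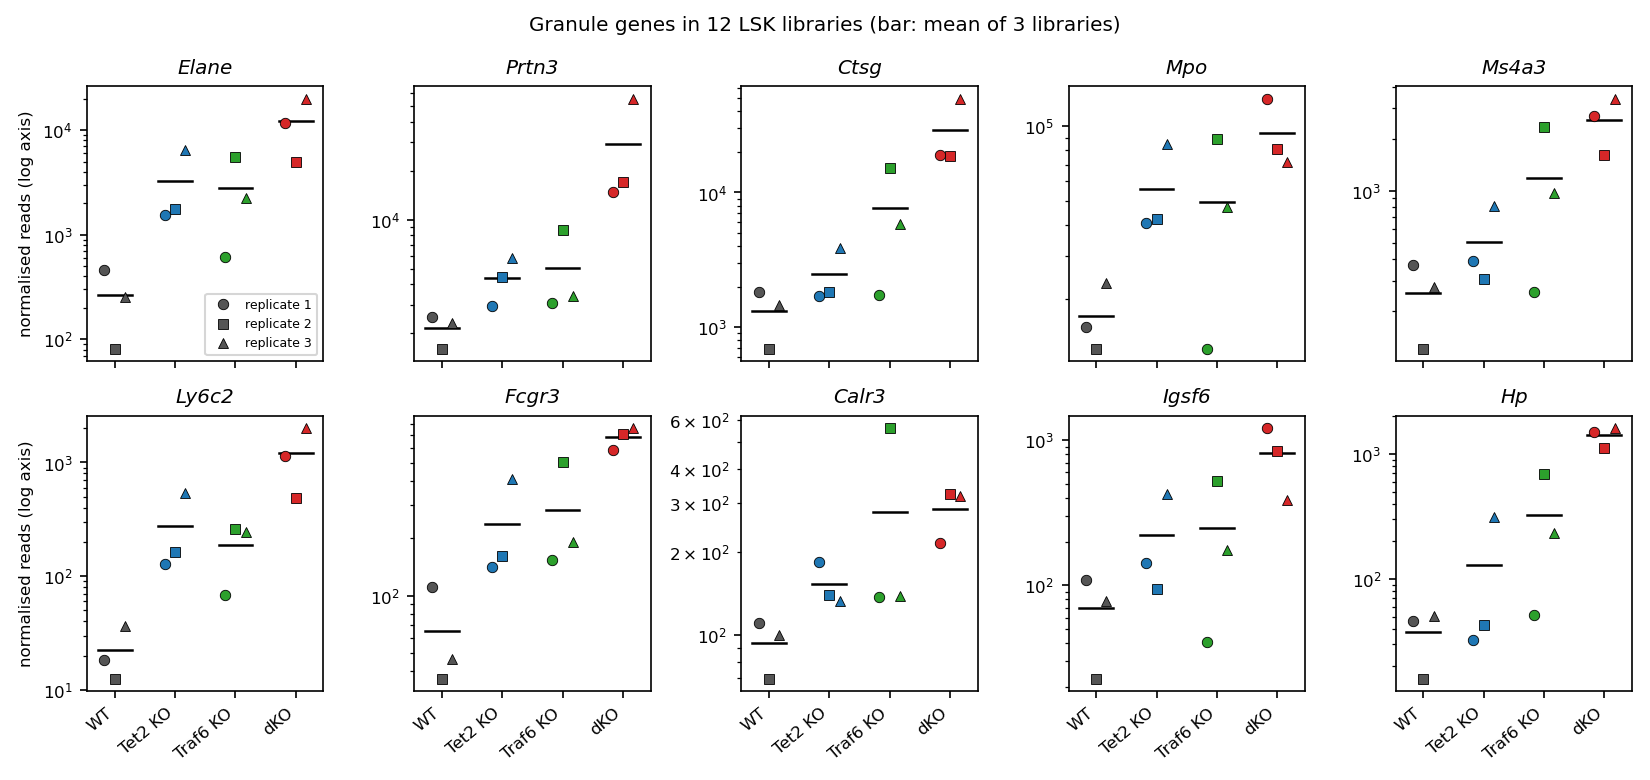
Normalised reads of each of the 10 genes (log axis, own scale per panel) in every library of WT, Tet2 KO, Traf6 KO and dKO; circles, squares and triangles are replicates 1, 2 and 3 and bars the mean of 3 libraries. The dKO libraries lie above all WT libraries in each panel, and the library labelled Traf6 KO 1 is the lowest of its group in all 10.

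Elane (chromosome 10, 79886247 to 79888215, plus strand, GRCm38) encodes neutrophil elastase, a protease of azurophil granules. WT libraries held 456, 81.1 and 257 normalised reads and Tet2 KO libraries 1529, 1753 and 6435. Traf6 KO libraries held 616, 5502 and 2261 and dKO libraries 11719, 4913 and 20022. Every mutant library lay above the highest WT library, and dKO 2 fell below the highest library of each single knockout. The dKO mean of 12218 ± 7567 (SD, n = 3) was 46.2-fold the WT mean of 264 ± 187, a log2 change of 5.62 ± 0.82 (SE, adjusted p = 0.000463, limma). After removal of that trend it was 4.21 ± 0.75.

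Prtn3 (chromosome 10, 79874476 to 79883174, plus strand) encodes proteinase 3 and ends 3073 nt before Elane. WT libraries held 2528, 1604 and 2316 normalised reads and Tet2 KO libraries 2958, 4404 and 5795. Traf6 KO libraries held 3059, 8673 and 3378 and dKO libraries 14840, 16918 and 55385. Every dKO library exceeded all libraries of the other 3 groups, with dKO 3 far above the other two. The log2 change of dKO against WT was 3.51 ± 0.49 (SE, adjusted p = 0.000386, limma) and 2.19 ± 0.29 with the trend removed.

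Ctsg (chromosome 14, 56099881 to 56102574, minus strand) encodes cathepsin G. It stood at 1821, 689 and 1471 in WT, where the Tet2 KO values of 1707, 1826 and 3887 overlapped it. Traf6 KO values were 1727, 15219 and 5871, and dKO values were 18893, 18799 and 49911. The dKO libraries were again above all others. Their log2 change against WT was 4.41 ± 0.66 (SE, adjusted p = 0.000509, limma), or 3.01 ± 0.56 with the trend removed.

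Mpo (chromosome 11, 87793581 to 87804413, plus strand) encodes myeloperoxidase, the haem enzyme that makes hypochlorous acid. It was the most abundant member: the 3 WT libraries held 15446, 12565 and 23184 normalised reads and the Tet2 KO libraries 40669, 42086 and 85126. Traf6 KO libraries held 12561, 88759 and 46966 and dKO libraries 129731, 81213 and 71836. Tet2 KO and dKO lay wholly above WT, but the library labelled Traf6 KO 1 was level with the lowest WT library and dKO overlapped both single knockouts. By mean among all genes Mpo took place 136 for WT, 12 for Tet2 KO, 18 for Traf6 KO and 13 for dKO. The dKO change was 2.46 ± 0.55 (SE, adjusted p = 0.0038, limma) and, unlike the proteases, was no smaller with the trend removed (2.63 ± 0.54).

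Ms4a3 (chromosome 19, 11629496 to 11640851, minus strand) encodes a membrane-spanning protein that marks granulocyte-monocyte progenitors. WT libraries held 368, 121 and 275 normalised reads, Tet2 KO libraries 392, 308 and 814, Traf6 KO libraries 260, 2320 and 968, and dKO libraries 2705, 1599 and 3410. Tet2 KO and Traf6 KO both overlapped WT, and dKO was above WT and Tet2 KO. The log2 change of dKO against WT was 3.4 ± 0.67 (SE, adjusted p = 0.002, limma), and 2.46 ± 0.65 with the trend removed.

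Ly6c2 (chromosome 15, 75108158 to 75111970, minus strand) encodes a GPI-anchored surface protein of monocytes and their precursors. It was nearly silent in WT, at 18.4, 12.6 and 36.5. Tet2 KO libraries held 129, 165 and 540, Traf6 KO libraries 68.2, 259 and 242, and dKO libraries 1150, 483 and 2002. All 9 mutant libraries were above all WT libraries. The dKO mean was 53.8-fold the WT mean and the log2 change 5.59 ± 0.70 (SE, adjusted p = 0.000302, limma), with 5.36 ± 0.68 when the trend was removed. Its near-identical neighbour Ly6c1, whose reads the counting could have split with Ly6c2, was at 4.44 to 32.2 in all libraries. The longest annotated transcript is 2680 nt for Ly6c2 and 844 nt for Ly6c1. The trend-removed values of Ly6c2 rest on the 2680 nt, and none were computed for a shorter length.

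Fcgr3 (chromosome 1, 171051174 to 171064935, minus strand) encodes a low-affinity receptor for IgG. WT libraries held 111, 36.6 and 46.2, Tet2 KO libraries 141, 162 and 410, Traf6 KO libraries 154, 502 and 191, and dKO libraries 584, 711 and 760. WT lay below every mutant library and dKO above every other library, while Tet2 KO and Traf6 KO overlapped. The dKO libraries had the least relative spread of any member (685 ± 90.8, SD, n = 3). Its dKO change was 3.54 ± 0.55 (SE, adjusted p = 0.000596, limma), or 2.38 ± 0.49 with the trend removed.

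Igsf6 (chromosome 7, 121064067 to 121074572, minus strand) encodes an immunoglobulin-superfamily receptor of myeloid cells. The values 109, 22.8 and 77.9 belonged to WT, 142, 94.9 and 426 to Tet2 KO, 40.9, 527 and 175 to Traf6 KO, and 1206, 836 and 384 to dKO. Only WT was fully separated from dKO. The dKO change was 3.63 ± 0.86 (SE, adjusted p = 0.00513, limma), and 3 ± 0.87 with the trend removed. Igsf6 lies wholly inside Mettl9, which is read from the opposite strand, and the kit does not mark strand. Mettl9 changed less, from 1800 ± 112 (SD, n = 3) in WT to 2932 ± 842 in dKO, a log2 change of 0.66.

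Hp (chromosome 8, 109575128 to 109579172, minus strand) encodes haptoglobin, which binds free haemoglobin and is stored in neutrophil granules. WT gave 46.1, 16.0 and 51.0, Tet2 KO 32.7, 42.6 and 311, Traf6 KO 51.8, 697 and 234, and dKO 1498, 1110 and 1605. Tet2 KO 1 and 2 were within the WT range and Tet2 KO 3 was not, while dKO stood above all other libraries. The dKO mean was 37.2-fold the WT mean and the log2 change 5.32 ± 0.91 (SE, adjusted p = 0.000947, limma), falling to 4.18 ± 0.89 with the trend removed.

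Calr3 (chromosome 8, 72424176 to 72443870, minus strand), a calreticulin relative best known from testis, was the member with the smallest change. WT gave 111, 69.7 and 100, Tet2 KO 185, 140 and 134, Traf6 KO 137, 561 and 138, and dKO 215, 323 and 320. The highest library of all was Traf6 KO 2, and dKO overlapped Traf6 KO. The change of dKO against WT was 1.61 ± 0.50 (SE, adjusted p = 0.019, limma). With the trend removed it was 0.73 ± 0.46 and did not pass (adjusted p = 0.248, where the alternatives ranged from 0.00401 to 0.268). The pseudogene Gm3835 inside Calr3 was at no more than 16.1.

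Because transcripts differ in length, levels between genes were compared per kilobase of the longest transcript. In WT the order was Mpo (6205 ± 1997 normalised reads per kb, SD, n = 3), Prtn3 (2097 ± 472), Ctsg (1324 ± 579), Elane (269 ± 190) and Ms4a3 (170 ± 83.0), with the other 5 members between 8.40 (Ly6c2) and 52.8 (Calr3). The SD intervals of Prtn3 and Ctsg overlapped in WT, as did those of Elane and Ms4a3. In dKO, Mpo (34276 ± 11300), Ctsg (29143 ± 17900) and Prtn3 (28339 ± 22276) had overlapping SD intervals, and Elane followed at 12417 ± 7690. These levels still hold the length and GC trend. With the trend removed, the log2 change of dKO against WT was 2.63 for Mpo and 2.19 for Prtn3, so Mpo rose no less than Prtn3. It was 3.01 for Ctsg and 4.21 for Elane. Hp rose from the second-lowest place among the members in WT to 1044 ± 194 in dKO, above Fcgr3 at 508 ± 67.4, Ly6c2 at 452 ± 284 and Igsf6 at 372 ± 189. Calr3, at 162 ± 34.9, was the lowest in dKO.

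**Figure D2:**
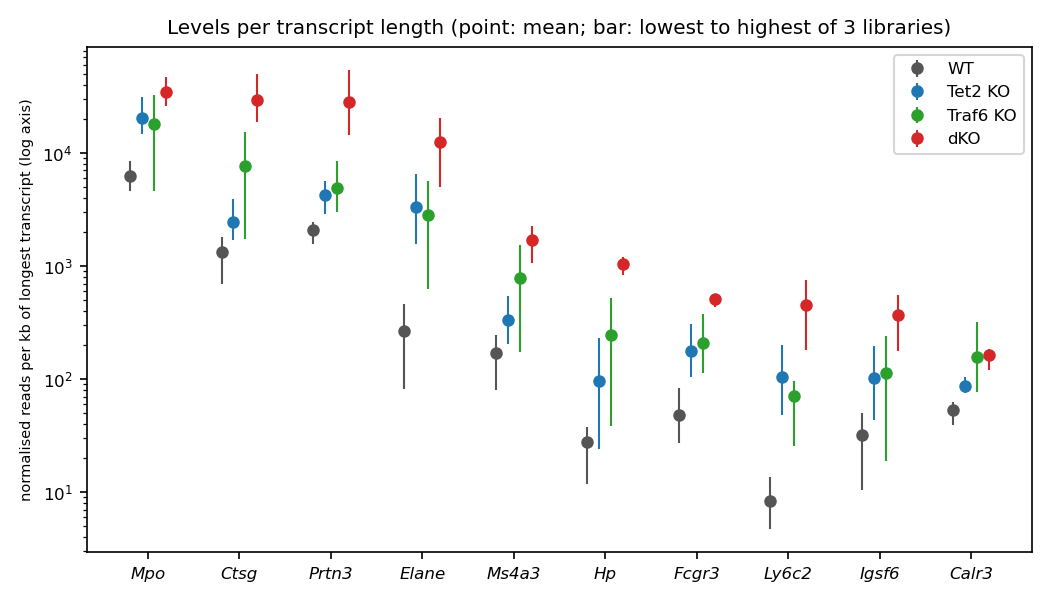
Level per kilobase of the longest transcript (log axis) for the 10 genes; points are group means and bars run from the lowest to the highest of 3 libraries. Mpo has the highest mean of the members in each group. On the log axis the gap between the means of Mpo and the proteases is smallest in dKO, with the length and GC trend not removed.

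As a share of all normalised reads, the 10 genes together took 0.0564% to 0.101% of WT libraries, 0.187% to 0.372% of Tet2 KO, 0.0674% to 0.440% of Traf6 KO and 0.439% to 0.637% of dKO. Mpo made up 73.5% to 83.4% of that sum in WT and 34.9% to 71.1% in dKO, lowest in dKO 3. The length and GC trend was not removed from these shares. The libraries of a group moved together over the members. WT 2 was the lowest of its group for 10 of 10 genes, and the library labelled Traf6 KO 1 was the lowest and Traf6 KO 2 the highest of theirs for 10 of 10. Tet2 KO 3 was the highest of its group for 9 of 10, the exception being Calr3, and dKO 3 for 7 of 10.

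Against WT, dKO called 10 of 10 genes higher (limma, adjusted p between 0.000302 and 0.019), where 21.9% of all tested genes were called higher, 26.5% lower and 48.3% either way. The median log2 change was 3.59 for the members and -0.09 for all tested genes. All 10 had dKO libraries wholly above WT libraries, which held for 27.9% of all genes. With the length and GC trend removed, 9 of 10 were called (Calr3 was not) against 15.6% of genes called higher and 13.8% lower, and the members' median was 2.81. In dKO 3 the median change of transcripts of up to 1000 nt was 2.85, against 0.779 in dKO 1 and 1.2 in dKO 2, and without dKO 3 all 10 members were still called. Calr3 was not called without WT 2 (1.41, adjusted p = 0.0731, limma) or without dKO 2 (1.5, adjusted p = 0.0546), nor with the spread weighted by group (adjusted p = 0.0509), within the range of 0.00401 to 0.268 given above.

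In Tet2 KO all 10 changes against WT were positive, from 0.72 (Calr3) to 3.60 (Elane), but none passed the threshold, where 0.413% of all tested genes were called in either direction and 0.107% of all tested genes higher. The nearest were Ly6c2 (3.4 ± 0.70, SE, adjusted p = 0.0592, limma) and Elane (3.60 ± 0.82, adjusted p = 0.0952). At an unadjusted p under 0.05 there were 4 of 10, against 8.44% of all tested genes. The edgeR test called 0 members (0.0854% of genes higher) and DESeq2 called 3, Elane, Ly6c2 and Fcgr3 (0.641% of genes higher). For 6 of 10 genes (Elane, Prtn3, Mpo, Ly6c2, Fcgr3 and Calr3) the Tet2 KO libraries lay wholly above WT, as for 8.07% of all genes. Ly6c2 was called without the library labelled Tet2 KO 1 (3.80, adjusted p = 0.044, limma), without the library labelled Traf6 KO 1 (3.4, adjusted p = 0.0444) and without dKO 3 (3.4, adjusted p = 0.039), and its adjusted p ranged from 2.88e-05 to 0.369 over the alternatives.

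In Traf6 KO the changes ran from 1.08 (Prtn3) to 3.21 (Elane), again all positive, and none passed (limma, smallest adjusted p 0.152 for Ly6c2), where 0.271% of all tested genes were called in either direction and 0.0783% of all tested genes higher. At an unadjusted p under 0.05 there were 8 of 10, against 7.80% of all tested genes. The edgeR test called 0 (0.057% of genes higher) and DESeq2 called 6 (Elane, Ctsg, Ms4a3, Ly6c2, Fcgr3 and Hp, with 0.534% of genes higher). The libraries of Traf6 KO were wholly above WT for 6 of 10 (Elane, Prtn3, Ly6c2, Fcgr3, Calr3 and Hp), against 9.68% of all genes. Without the library labelled Traf6 KO 1 the changes ran from 1.36 (Prtn3) to 4.05 (Elane) and again none passed (limma, smallest adjusted p 0.0597 for Ctsg). Both comparisons and that of dKO share the WT libraries.

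**Figure D3:**
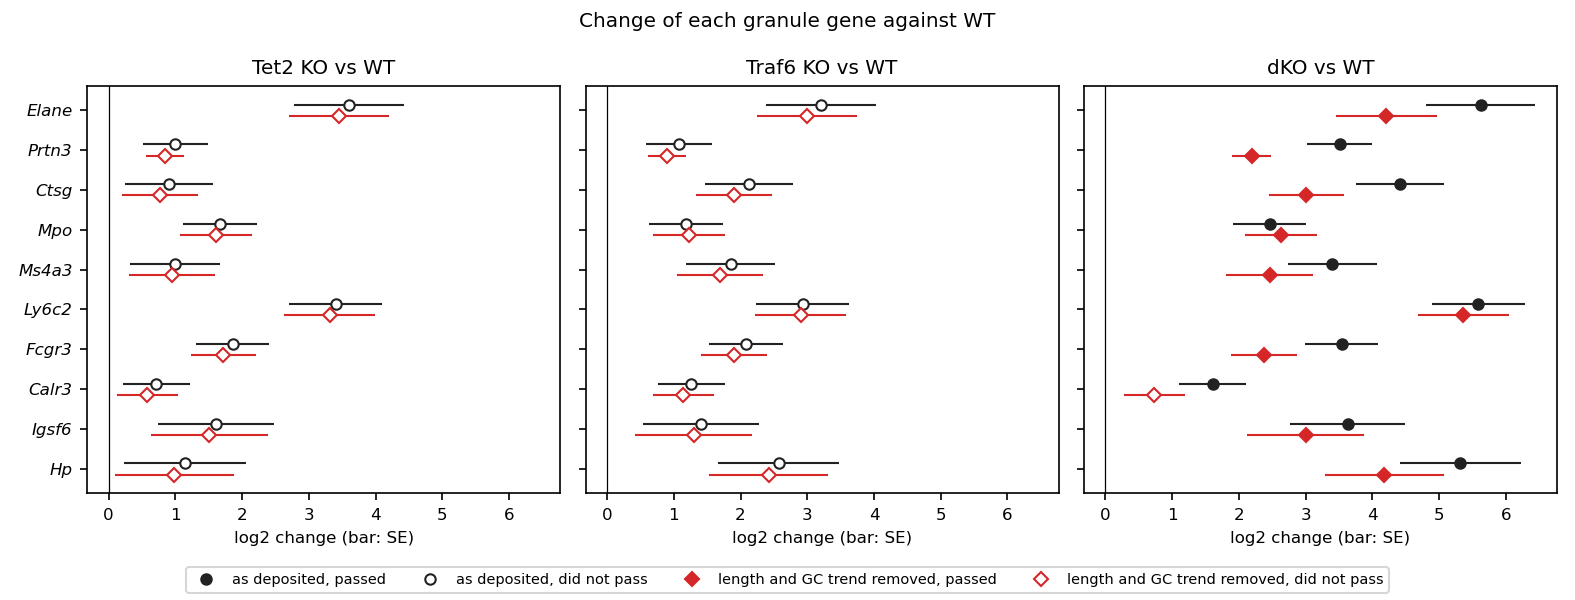
Log2 change of each gene against WT with its SE, for Tet2 KO, Traf6 KO and dKO; black circles are the values as deposited, red diamonds those with the length and GC trend removed, and filled symbols passed an adjusted p of 0.05. Filled symbols are found in the dKO panel, where Calr3 is open after the trend is removed.

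Set against Tet2 KO, dKO was higher for 6 members (limma), where 15.5% of all genes were called higher. These were Hp (4.17 ± 0.91, SE, adjusted p = 0.00945), Ctsg (3.50 ± 0.66, adjusted p = 0.00704), Prtn3 (2.51 ± 0.49, adjusted p = 0.00737), Ms4a3 (2.41), Ly6c2 (2.19) and Fcgr3 (1.69). Elane, at 2.02 ± 0.82, and Mpo, at 0.79 ± 0.55, were not called. The groups did not overlap for 6 members, as for 22% of genes. With the trend removed 3 remained, Prtn3, Ctsg and Hp (9.03% of genes called higher). Without the library labelled Tet2 KO 1 there were 2, without Tet2 KO 2 or dKO 3 there were 3, and without both libraries labelled KO 1 there was 1. Over all genes these fits called 871, 3448, 3337 and 56 in either direction, in that order, against 4963 with all libraries.

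Set against Traf6 KO, dKO was likewise higher for 6 members (limma), with 17.3% of all genes called higher: Hp (2.76 ± 0.91), Ly6c2 (2.66 ± 0.70, adjusted p = 0.0147), Prtn3 (2.43 ± 0.49, adjusted p = 0.00435), Elane (2.41 ± 0.82), Ctsg (2.28 ± 0.66, adjusted p = 0.0211) and Fcgr3 (1.47 ± 0.55, adjusted p = 0.0499). Non-overlapping groups were seen for 5 members and for 23.2% of genes. With the trend removed 2 remained, Prtn3 and Ly6c2 (10.3% of genes called higher). Without the library labelled Traf6 KO 1, 1 was called (Prtn3, 2.15, adjusted p = 0.024, limma), and without dKO 3 there was 1. Without Traf6 KO 3 there were 2 and without Traf6 KO 2 there were 9. Over all genes these fits called 2289, 3109, 2074 and 5114 in either direction, in that order, against 5342 with all libraries. The change of Calr3, 0.35 ± 0.50, turned to -0.41 with the trend removed.

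The interaction asks whether dKO differs from the sum of the 2 single changes on the log2 scale. It ran from -1.19 ± 1.17 (Elane) to 1.60 ± 1.29 (Hp), with 5 members positive, and called none (limma, smallest adjusted p 0.272 for Prtn3, where 0.221% of all genes were called). At an unadjusted p under 0.05 there were 0 of 10 with limma, against 18.6% of all tested genes, and 1 of 10 with DESeq2, against 25.9%, and neither edgeR (0.192% of genes called) nor DESeq2 (1.84%) called any. The SE of the members' interaction ran from 0.69 to 1.29.

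The 3 protease transcripts are of near-equal length (984 nt for Elane, 1002 nt for Ctsg and 1025 nt for Prtn3), so their ratios inside a library are little touched by depth or by the length trend. The Elane to Prtn3 ratio took the values 0.180, 0.0506 and 0.111 for WT and 0.517, 0.398 and 1.11 for Tet2 KO. For Traf6 KO it was 0.201, 0.634 and 0.669 and for dKO 0.790, 0.290 and 0.362, so that every mutant library was above every WT library. The Elane to Ctsg ratio was 0.118 to 0.250 in WT, 0.357 to 0.385 in Traf6 KO and 0.261 to 0.620 in dKO. It was 0.896 to 1.66 in Tet2 KO, where Elane was about level with Ctsg. The Traf6 KO range lay inside that of dKO. Tet2 KO lay above dKO in this ratio without overlap. Ctsg to Prtn3 was 0.429 to 0.720 in WT and 0.415 to 0.671 in Tet2 KO, and 0.901 to 1.27 in dKO, while Traf6 KO gave 0.565, 1.75 and 1.74. With 3 libraries against 3 the smallest p a two-sided exact permutation test allows is 0.1, which the non-overlapping pairs reached, or 0.25 after adjustment over 25 ratio tests.

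**Figure D4:**
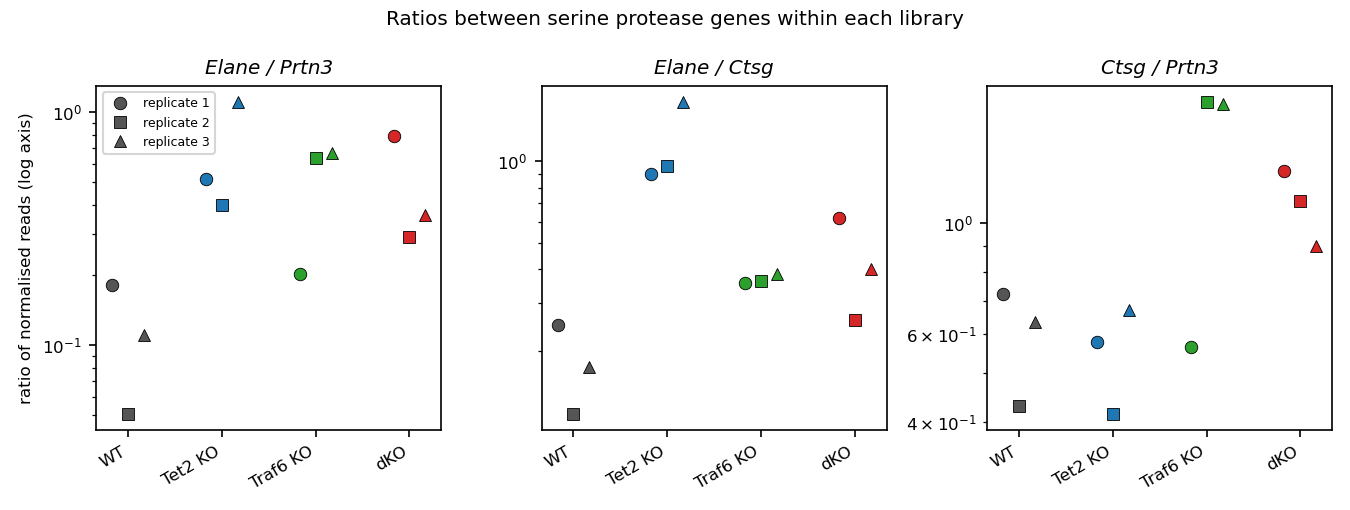
Ratios of normalised reads between the protease genes inside each library (log axes, own scale per panel), by genotype; symbols mark replicates. Elane to Ctsg is highest in Tet2 KO, and Ctsg to Prtn3 is below 1 in all WT and Tet2 KO libraries, in the library labelled Traf6 KO 1 and in dKO 3 (0.901).

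The machinery that processes, stores and restrains the proteases was read from a list of 14 genes. In dKO against WT, 7 were called higher and 2 lower, with a median log2 change of 0.83. Over all tested genes, 21.9% were called higher and 26.5% lower. Cst7, a cystatin that inhibits cathepsin C, rose by 3.10 (421 ± 81.9 in WT, 4324 ± 3430 in dKO, SD, n = 3, adjusted p = 0.00127, limma). Serpinb1a, an inhibitor of elastase, proteinase 3 and cathepsin G, rose by 1.36 (adjusted p = 0.00152), and Unc13d, a factor of granule release, fell by 1.60 (adjusted p = 0.000389). Ctsc, cathepsin C itself, was at 5691 ± 470 in WT and 6329 ± 661 in dKO and was not called. With the trend removed the counts were 7 and 1, where 15.6% of genes were called higher and 13.8% lower. The changes were then 1.71 for Cst7, 0.55 for Serpinb1a and -0.43 for Unc13d.

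Partners of myeloperoxidase were a list of 9, made of haem synthesis enzymes and chaperones. In dKO against WT 5 were called higher and 0 lower, median 0.68 (4 and 0 with the trend removed). The shares over all tested genes were 21.9% higher and 26.5% lower, or 15.6% and 13.8% with the trend removed. Alas1, the rate-limiting enzyme of haem synthesis, rose by 1.07 (2491 ± 45.0 in WT, 5368 ± 1520 in dKO, adjusted p = 0.00749, limma), and Alad, the next enzyme, by 1.51 (adjusted p = 0.00653). These changes were 1.54 and 0.76 with the trend removed. Pdia3, a disulfide isomerase, rose by 0.69 (adjusted p = 0.00856). Calr, the widely expressed calreticulin, was at 27660 ± 1940 in WT against 93.5 ± 21.3 for Calr3, and its change of 0.68 (adjusted p = 0.0203) was 0.13 with the trend removed.

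Among 29 other genes of azurophil granules and early myeloid progenitors, 21 were called higher and 0 lower in dKO, median 2 (18 and 0 with the trend removed). The shares over all tested genes were 21.9% higher and 26.5% lower, or 15.6% and 13.8% with the trend removed. Ccl9, a chemokine, rose by 3.75 (2441 ± 793 to 32050 ± 7530, adjusted p = 0.000261, limma). Prss57, a serine protease of azurophil granules whose gene lies 95286 nt from Elane, rose by 2.29 (597 ± 105 to 3020 ± 1120, adjusted p = 0.000564). BC035044 rose by 2.17 (adjusted p = 0.000398), or by 1.17 with the trend removed. Cd34, the most abundant of the list, was at 43410 ± 8110 in WT and 52230 ± 9940 in dKO and was not called.

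Of 11 tested transcription factors of the granule programme, 3 were called higher and 4 lower in dKO, median 0.31, where 21.9% of all tested genes were higher and 26.5% lower. Sfpi1, the older symbol of Spi1 for PU.1, rose by 1.60 (4322 ± 589 to 14200 ± 7340, adjusted p = 0.00229, limma), and the C/EBP genes Cebpd and Cebpb rose by 2.60 and 1.52. Cebpa, at 325 ± 183 in WT and 340 ± 83.5 in dKO, Gfi1 and Irf8 were not called. Etv6 fell by 1.82 (adjusted p = 0.000647, limma) and Zeb2 by 1.60 (adjusted p = 0.00232). Runx1 and Myb were also called lower, with log2 changes of -0.99 (adjusted p = 0.00578, limma) and -0.89 (adjusted p = 0.0138). With the trend removed the counts were 3 and 1, where 15.6% of all tested genes were called higher and 13.8% lower. The rises of Sfpi1, Cebpd and Cebpb and the fall of Etv6 (-0.54) passed. Zeb2 at -0.31, Myb at -0.51 and Runx1 at 0.175 did not.

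Of 17 tested genes of the later specific and gelatinase granules, 4 were called higher and 2 lower in dKO against WT, median 0.66, or 2 and 1 with the trend removed, median -0.10. The shares over all tested genes were 21.9% higher and 26.5% lower, or 15.6% and 13.8% with the trend removed. Pglyrp1, a peptidoglycan-binding protein, rose by 3.02 (adjusted p = 0.000563, limma) and Anxa1, annexin A1, by 1.5, against 1.62 and 0.56 with the trend removed. Lactoferrin (Ltf, 581 ± 423 in WT, 287 ± 345 in dKO) and the cathelicidin gene Camp (167 ± 105 and 187 ± 149) were not called. Against Tet2 KO, dKO called 10 of them higher and 2 lower, where 15.5% of all genes were higher and 19.9% lower. With the trend removed 4 were higher and 0 lower in that comparison, where 9.03% of all genes were called higher. There Lcn2, lipocalin 2, stood at 21.5 ± 7.44 in Tet2 KO and 241 ± 121 in dKO (adjusted p = 0.00784) and S100a9, a calcium-binding protein of mature neutrophils, at 85.8 ± 21.1 and 1091 ± 1070 (adjusted p = 0.00945). Their changes of 3.34 and 3.10 were 2.36 and 1.56 with the trend removed. In WT, S100a9 stood at 375 ± 170, and with the trend removed S100a9 and its partner S100a8 were called lower in Tet2 KO than in WT.

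Neighbours and relatives of the members gave 10 higher and 1 lower of 17 tested in dKO against WT, median 1.81 (6 and 0 with the trend removed). The shares over all tested genes were 21.9% higher and 26.5% lower, or 15.6% and 13.8% with the trend removed. Ms4a6c and Ms4a4b, of the Ms4a family, rose by 3.04 and 4.42 (adjusted p = 0.000261 and 0.000298, limma), and Fcgr2b, the inhibitory IgG receptor, by 2.63. These were 2.19, 4.95 and 2.88 with the trend removed. Cma1, a mast cell chymase and a relative of Ctsg, was at 0 in all WT and Tet2 KO libraries, at 340 ± 76.7 in Traf6 KO and at 95.8 ± 38.9 in dKO, and was the 1 gene of the 6 lists called in a single knockout by limma on the values as deposited. Cfd, the gene next to Elane, was low in all libraries and did not pass the filter for testing. It was at most 2.89 in WT, 0 in Tet2 KO, at most 4.44 in Traf6 KO and 7.51 to 23.2 in dKO.

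**Figure D5:**
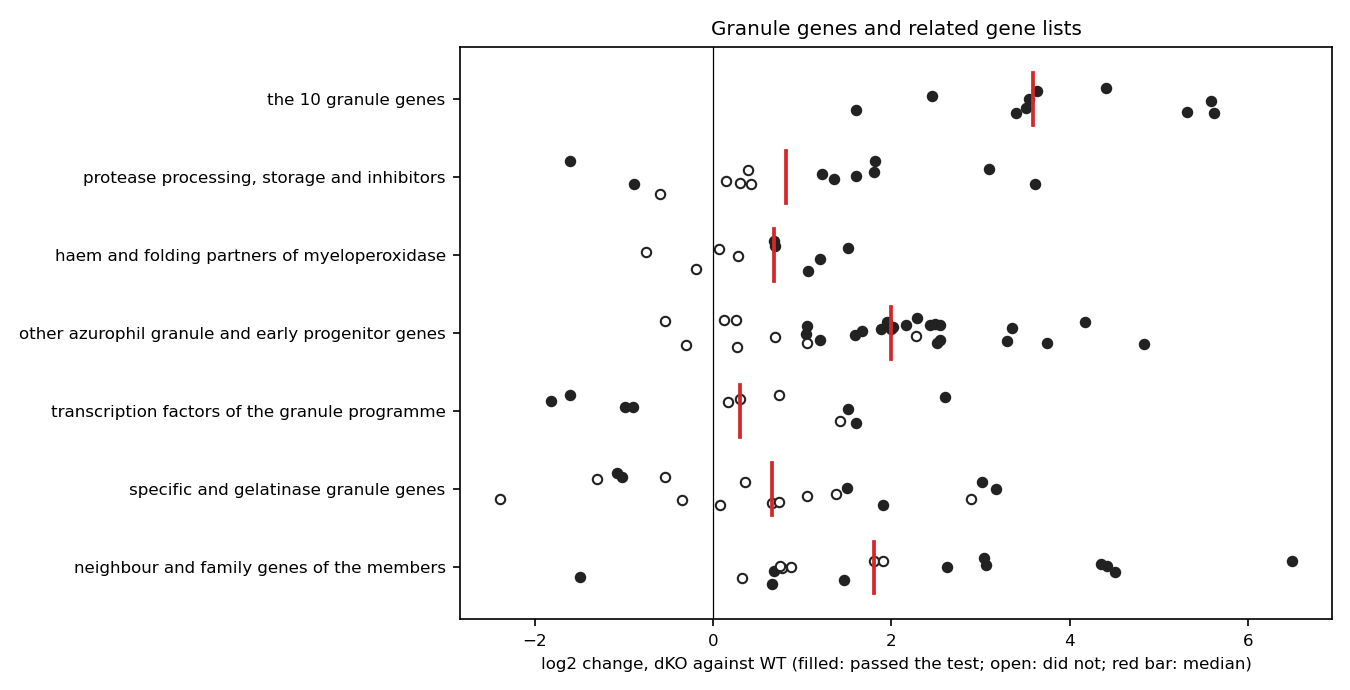
Log2 change of dKO against WT for each tested gene of the 10 members and 6 related lists; filled points passed an adjusted p of 0.05 and red bars are medians. All 10 members are filled and to the right of 0, while the transcription factors and late granule genes spread to both sides.

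Markers of other cells were read beside these results. Of the mature neutrophil list, 6 of 8 genes were tested and none passed in dKO against WT. Its sum ran from 872 to 3311 for WT, 467 to 794 for Tet2 KO, 2040 to 3657 for Traf6 KO and 962 to 6071 for dKO, and Ly6g was at most 3.57 in any library. The macrophage and dendritic cell sum was 638 to 822 in WT and 1911 to 6564 in dKO (1 of 7 higher, Marco at 0 in all 12 libraries). Mast cell and basophil genes summed to 14150 to 17250 in WT and 11520 to 15120 in dKO (5 of 7 higher, 1 lower), and erythroid genes to 2456 to 3940 and 16720 to 34820 (3 of 7 higher). Over all tested genes, 21.9% were called higher in dKO and 26.5% lower. No counts with the trend removed were made for the marker lists. The mast cell and basophil sum was 8925 to 10250 in Tet2 KO. In Traf6 KO it was 16410 to 21360, with 2 of 7 called higher (0.0783% of all tested genes). In the single knockouts the erythroid sum was 7765 to 71460 (Tet2 KO) and 4059 to 12140 (Traf6 KO). The B cell sum was 6683 to 9747 in WT, 11780 to 67880 for Tet2 KO, 6589 to 32270 for Traf6 KO and 7589 to 60430 for dKO. The part of these cells in the members' changes was not tested.

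Most stem cell markers moved the other way: their sum was 72840 to 84580 in WT and 18260 to 30030 in dKO, and 6 of 8 were called lower. Over all tested genes, 21.9% were called higher and 26.5% lower. Most of the WT sum was Kit. Kit, which encodes the c-Kit of the sort, was at 46710 ± 1930 in WT and 6713 ± 4520 in dKO (log2 change -2.99, adjusted p = 0.000326, limma, and -1.88 with the trend removed). Ly6a, which encodes Sca-1, was at 2178 ± 176 and 5877 ± 6360 and was not called. Eosinophil, megakaryocyte, B cell and T and NK cell lists gave 0, 1, 2 and 1 genes higher and 0, 2, 0 and 0 lower in dKO against WT; the T and NK call, Nkg7, is also on the list of early progenitor genes. How far the mix of cells in the gate differed between groups was not tested.

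Over the 12 libraries the members followed each other closely. Pearson's r of a member with the mean of the other 9, on centred log2 values, ran from 0.813 (Calr3) to 0.972 (Ms4a3), and after removal of the trend from 0.604 (Calr3) to 0.963 (Mpo). These values describe 12 libraries in 4 genotypes that share depth and genotype differences. Outside the list the 5 closest genes by the same measure were Anxa3 (r = 0.97), Clec12a (0.964), Trem3 (0.963), Ap3s1 (0.961) and Setd6 (0.953). Trem3, a myeloid receptor gene, ran from 13.5 to 31.2 for WT, 49.6 to 102 for Tet2 KO, 57.3 to 513 for Traf6 KO and 414 to 580 for dKO. Ap3s1, which encodes a subunit of the AP-3 sorting adaptor, was at 266 to 380 in WT and 2227 to 2389 in dKO. Without the trend the r of Setd6 was 0.647 and that of the other 4 was between 0.895 and 0.936.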

How the data were processed

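RNA of 12 LSK libraries, 3 per genotype, was amplified with a SMART-Seq low-input kit and sequenced on a HiSeq instrument, per the labels' protocols. The authors deposited a normalised signal, in which each library's gene reads were scaled by 1 constant. Named in the submitters' processing notes are the tools bcl2fastq, STAR, featureCounts and DESeq2, with GRCm38 and mm10 as genome builds. Versions and settings are not given in the sources used here. Reads were recovered from the deposited signal by dividing each library by its smallest value (100% whole, tolerance 1e-06), and each read was worth 0.518 to 1.79 units. Reads per member and library ran from 11 (Ly6c2) to 164447 (Mpo), which limits the low WT values most.

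Comparisons were tested with limma 3.58.1 (trend and robust, under R 4.3.3) on log2(value + 1) over all 12 libraries, for 14045 genes at 10 or more in at least 3 libraries. Adjustment was by Benjamini-Hochberg within each of 6 comparisons, with a threshold of 0.05. Alternatives were a pseudocount of 5, no filter, a replicate block, equal library totals, leaving out each library, the 2 compared groups alone, weights by group, and edgeR 4.0.16 and DESeq2 1.42.0 on the recovered reads. In a further alternative a loess trend (span 0.3) on length and GC content was removed, with lengths for 97.3% of tested genes. A pair of alternatives was added after the data were seen: both libraries labelled KO 1 left out, and the trend removed without dKO 3. The fits were run on simulated counts with the same spread setting for all genes and groups and no length trend. That check does not show how they behave on these libraries. Positions come from GENCODE M21 and promoters from RefSeq (GRCm38.p6), which holds 9 of the 10 members.

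The members, the 6 related gene lists and the 9 marker lists were chosen with earlier results of these data known. Named genes were the members, up to 3 genes with the smallest p of each list and comparison (or the 2 most abundant where none passed), overlapping or near-identical genes, and the 5 genes closest to the members' mean among genes with a mean of at least 50. Genes named as not called (Ctsc, Cebpa, Gfi1, Irf8, Ltf, Camp), Calr, Cebpd, Cebpb, Runx1, Myb, Fcgr2b, Cd34, Nkg7, Ly6g, Kit, Ly6a, Cfd, Xist, Ddx3y and Eif2s3y were added after their values were seen. Ebf1 and Hbb-bs were not analysed here. Separate animals are not stated in the labels for replicates of a genotype. A p-value here therefore measures library-to-library spread, possibly technical.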

Additional observations from a re-analysis of the deposited data

How the results depend on the processing

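The 10 members were called higher in dKO against WT under every alternative except for Calr3, which was not called without WT 2 or dKO 2, with the trend removed, or with the spread weighted by group (9 members each), so that leaving out 1 library gave 9 to 10. Other counts moved more.

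For Tet2 KO against WT (0 members reported) the count was 1 with equal library totals, 1 with the replicate block, 1 with the trend removed and the replicate block, 3 with the 2 groups alone, 3 with DESeq2, 4 with the spread weighted by group and 0 to 1 when 1 library was left out. For Traf6 KO against WT (0 reported) it was 6 with DESeq2, 1 with the trend removed and the replicate block and 1 with weights. For dKO against Tet2 KO (6 reported) it was 1 with the 2 groups alone, 3 with the trend removed, 4 with the replicate block as well, 3 with weights and 2 to 8 when 1 library was left out. For dKO against Traf6 KO (6 reported) it was 3 without a filter, 3 with edgeR, 2 with the 2 groups alone, 2 with the trend removed, 2 with the replicate block as well, 1 with weights and 1 to 9 when 1 library was left out. Leaving out both libraries labelled KO 1, an alternative chosen after seeing the data, gave 1 for Tet2 KO against WT, 1 for dKO against Tet2 KO and 1 for dKO against Traf6 KO. Over all genes that fit called 115, 56 and 1734 for these comparisons. Removing the trend and leaving out dKO 3, also chosen after seeing the data, gave 1, 3 and 1. The interaction called 0 members throughout and could not be fitted with 2 groups alone.

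Over all genes, Tet2 KO against WT called 58, and 300 with DESeq2, 367 with the 2 groups alone, 536 with weights and 13 to 141 when 1 library was left out. Traf6 KO against WT called 38, and 167 with DESeq2, 169 with weights and 14 to 79. dKO against WT called 6790, and 4023 with the trend removed. dKO against Tet2 KO called 4963, and 2233 with the trend removed, 61 with the 2 groups alone and 871 without the library labelled Tet2 KO 1. dKO against Traf6 KO called 5342, and 2668 with the trend removed, 1186 with the 2 groups alone and 2074 to 6938 when 1 library was left out. The interaction called 31, and 259 with DESeq2 and 2472 without dKO 1.

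None of the reversed values passed the threshold. The change of Calr3 in dKO against Traf6 KO was -0.0327 with edgeR, -0.41 with the trend removed, -0.41 with the replicate block as well and -0.26 with the trend removed and dKO 3 left out. In the interaction, leaving out 1 library gave -1.18 to 0.235 for Mpo (highest without Traf6 KO 2), -0.287 to 1.29 for Ms4a3 and -0.349 to 1.48 for Igsf6 (both lowest without the library labelled Traf6 KO 1), -0.863 to 0.125 for Fcgr3 and -0.704 to 0.308 for Calr3 (both highest without Traf6 KO 2). Fcgr3 was also 0.0868 without Tet2 KO 3. Ms4a3 and Igsf6 were -0.404 and -0.515 without both libraries labelled KO 1. Ms4a3 was -0.18 with the trend removed, -0.18 with the replicate block as well and -0.15 with the trend removed and dKO 3 left out. The cause was not tested.

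Equal replicate numbers did not pair the libraries: 3 of 18 pairs had correlated deviations over 0.1 (-0.177 to 0.193), and 4 libraries correlated best with their own number. The replicate block gave 10 members for dKO against WT, 6 against Tet2 KO and 5 against Traf6 KO. Depth limits Ly6c2 and Hp in WT most, at as few as 11 and 14 reads.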
